A study of Mus with 3 samples.

Results

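The 33 genes described here encode the enzymes of cholesterol synthesis and the proteins that regulate, take up, move, store and remove cholesterol. They were chosen by name, as the probes whose gene name in the array files is one of the 33. This choice of genes uses no measured value, though the genes were picked with earlier results of these arrays known. The choice of probe does use measured values: each gene was represented by its brightest probe among those that reached a signal to noise score of 2.6. All 33 were measured on all 3 arrays, among 13951 genes measured on at least 2 arrays. Of them, 17 are synthesis enzymes and 16 are genes of regulation, uptake, transport and turnover.

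The mice were males of the outbred stock Slc:ddY, aged 6 weeks and kept in 3 groups of 10, and gene expression was read from their hippocampus. The ASO group received shochu oil, an oil fraction of a sweet potato spirit, by mouth at 2000 mg/kg/day for 15 days, and 10 nmol of Aβ25-35 in 5 µL into the cerebral ventricles on day 8. The treatment label and the design text name ASO as injected, while the protocol gives the dose and day of that injection under the group name SCO, which no sample carries and which was read as ASO. The ACO group received distilled water by mouth for 15 days and the same injection of Aβ25-35, a short fragment of the amyloid β peptide, on day 8. The NCO group received distilled water by mouth for 15 days and 5 µL of distilled water in place of the peptide. The route of that water is not given, so effects of the injection itself and of the peptide cannot be told apart. No group received the oil without the peptide. The hippocampus was taken after a Y-maze trial on day 16. RNA of 2 mice made 1 set, 5 sets were pooled for each group, and each pool was hybridised to 1 array, so that no group had a replicate and no test was possible.

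Neurons and glia make their own cholesterol, because lipoproteins of the blood do not cross the blood-brain barrier. Acetyl-CoA is built up through mevalonate and squalene to lanosterol, which further enzymes turn into cholesterol. When sterols are scarce in the endoplasmic reticulum, the escort protein Scap carries the transcription factors Srebf1 and Srebf2 to the Golgi, where they are cut and freed to switch on most of these enzymes, and the Insig proteins hold this back when sterols are plentiful. In the adult brain oligodendrocytes use cholesterol for myelin, and astrocytes pass it to neurons on lipoproteins, with export through ABC transporters that the liver X receptors induce.

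Signals below are background-corrected spot intensities scaled to a common 75th percentile, in array units, and are compared between arrays for 1 probe at a time. Differences are taken on log2(signal + 50), in the direction named (ASO minus ACO, for example), and the added 50 shrinks those of dim probes. A gene past 1.2-fold differs by at least 0.263. Each member probe was printed once, so its own spot error was not measured. Over 249 probes printed at 5 or more spots, the SD of the difference between 2 arrays had a median of 0.084 for ACO minus NCO, 0.093 for ASO minus ACO and 0.098 for ASO minus NCO. For probes with a signal under 300 it was 0.10 for ACO minus NCO, 0.11 for ASO minus ACO and 0.12 for ASO minus NCO. These SDs cover spot error only, and not the difference between mice or between labelling reactions. The median foreground intensity was 97 on ASO, 95 on ACO and 88 on NCO, over a median local background of 43 on ASO and 44 on ACO and NCO. Signal also varied over the array surface: the spots around the 33 probes lay between -0.25 and 0.15 from the array median for ASO minus NCO, and between -0.14 and 0.12 for the other comparisons. All 11 genes listed as hippocampal neuron markers were measured on every array. Among them were Prox1, Wfs1 and Neurod6, and also Snap25 and Rbfox3, which mark neurons in general. The lowest scores inside the limit belonged to a second Srebf2 probe, whose lowest score was 2.85, and to Soat1, at 3.73. The nearest member probe outside the limit, a second Nsdhl probe, lay well below it, at 0.938.

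**Figure D1:**
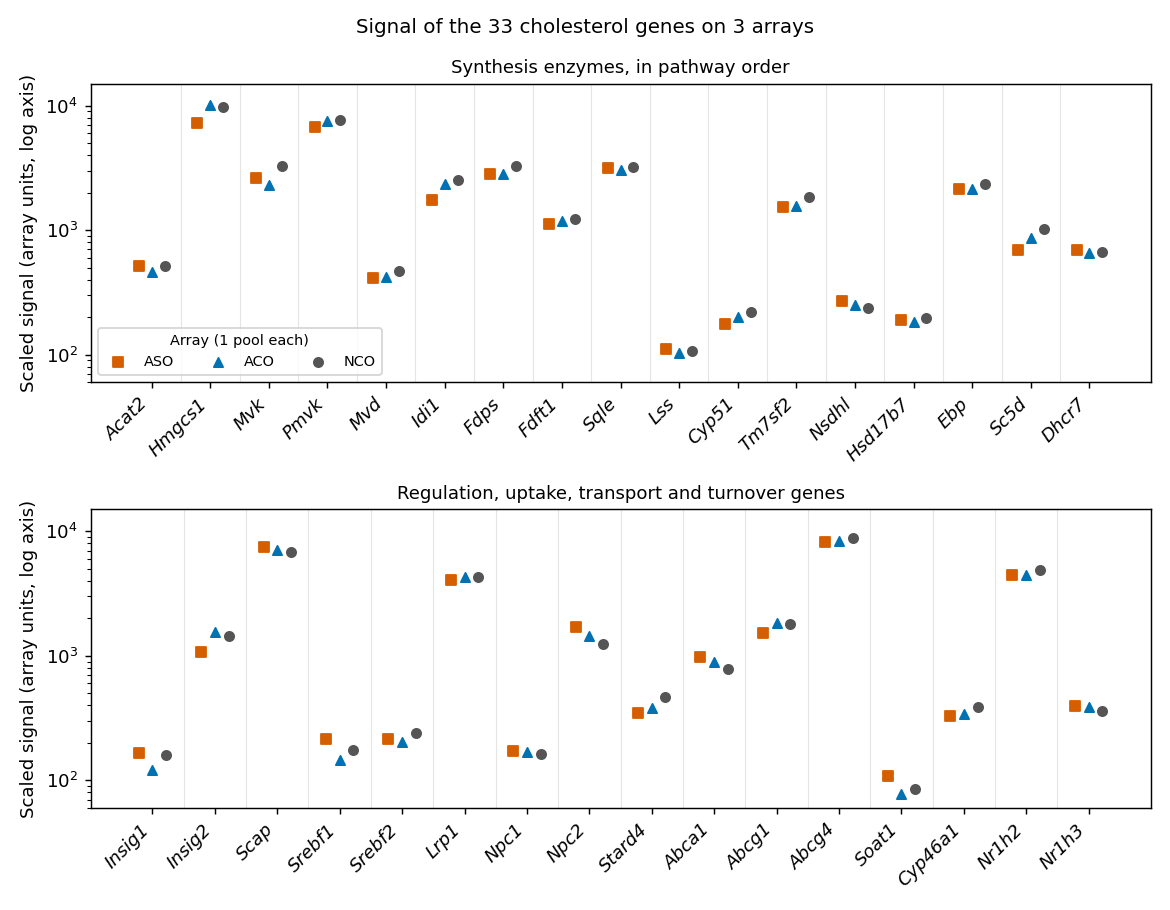
Scaled signal (array units, log axis) of the 33 genes on the ASO, ACO and NCO arrays, 1 pool of 10 mice each, with no replicate and therefore no error bar. Hmgcs1, Idi1, Sc5d and Insig2 sit lowest on ASO, while Npc2 and Abca1 sit highest on ASO and lowest on NCO.

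The comparison of ACO with NCO addressed the injection of the peptide, with the limit on the route of the water given above. Synthesis enzymes were mostly a little lower on the ACO array: 15 of 17 (88.2%) were lower, where 48.2% of all 13317 measured genes were. Their median difference was -0.10, against 0.005 over all measured genes. Among the 16 other genes 8 were lower and 8 higher, where 51.8% of all genes were higher, and their median was -0.027. Past 1.2-fold, 3 of the 33 genes were lower, where 2.72% of all genes were, and 0 were higher, where 2.76% of all genes were. The 3 lower genes were Mvk at -0.51, Insig1 at -0.29 and Stard4 at -0.28. Of the 17 enzymes 10 were lower by more than the median spot SD, 7 lay within it and 0 were higher by more than it, where 22.7% of all genes were lower and 23.9% higher by that much. After correction by the surrounding spots 1 of the 33, Mvk, stayed lower by 1.2-fold or more, where 2.31% of all genes were.

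The comparison of ASO with ACO addressed the effect of the oil in mice that had received the peptide. The synthesis enzymes did not move one way as a list, with 9 of 17 lower, where 52.9% of all 13571 measured genes were lower, and a median of -0.018 against -0.013 over all genes. By more than the median spot SD, 5 enzymes were lower and 2 higher, where 33.6% of all genes were lower and 29.8% higher. Single members lay far out on both sides. Insig2 at -0.51, Hmgcs1 at -0.47, Idi1 at -0.40 and Sc5d at -0.30 were lower by 1.2-fold or more, which makes 4 of 33 (12.1%) where 9.26% of all genes were. Srebf1 at 0.45, Insig1 at 0.32 and Soat1 at 0.31 were higher by 1.2-fold or more, which makes 3 of 33 (9.09%) where 10.1% of all genes were. Both shares lie near those of all genes. The 3 higher members were dim, with signals under 300 on every array, where the median spot SD of this comparison was 0.11.

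The comparison of ASO with NCO shares its arrays with the other 2 comparisons and its differences are the sums of theirs. Enzymes were lower in 13 of 17 cases (76.5%), where 52.9% of all 13460 measured genes were, and their median was -0.15 against -0.014 over all genes. By more than the median spot SD, 11 enzymes were lower and 1 higher, where 32.7% of all genes were lower and 28.5% higher. Past 1.2-fold, 7 of the 33 genes (21.2%) were lower, where 8.31% of all genes were. These were Idi1, Sc5d, Insig2, Hmgcs1, Stard4, Mvk and Cyp51, from -0.51 to -0.27. Over the alternative settings the count ran from 5 to 8. It was 5 with the mean over probes, where Mvk came to -0.197 and Insig2 to -0.223, and where 6.75% of all genes were lower by that much. Stard4 came to -0.145 after correction by the surrounding spots and Cyp51 to -0.231 with spot means, while Idi1, Sc5d and Hmgcs1 stayed past 1.2-fold under every setting. In the other direction 2 of 33 (6.06%), Npc2 at 0.44 and Abca1 at 0.32, were higher by 1.2-fold or more, where 10.3% of all genes were. No member differed by 2-fold in any comparison, as did 0.267% of all genes in this one, 0.251% for ASO minus ACO and 0.0751% for ACO minus NCO.

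**Figure D2:**
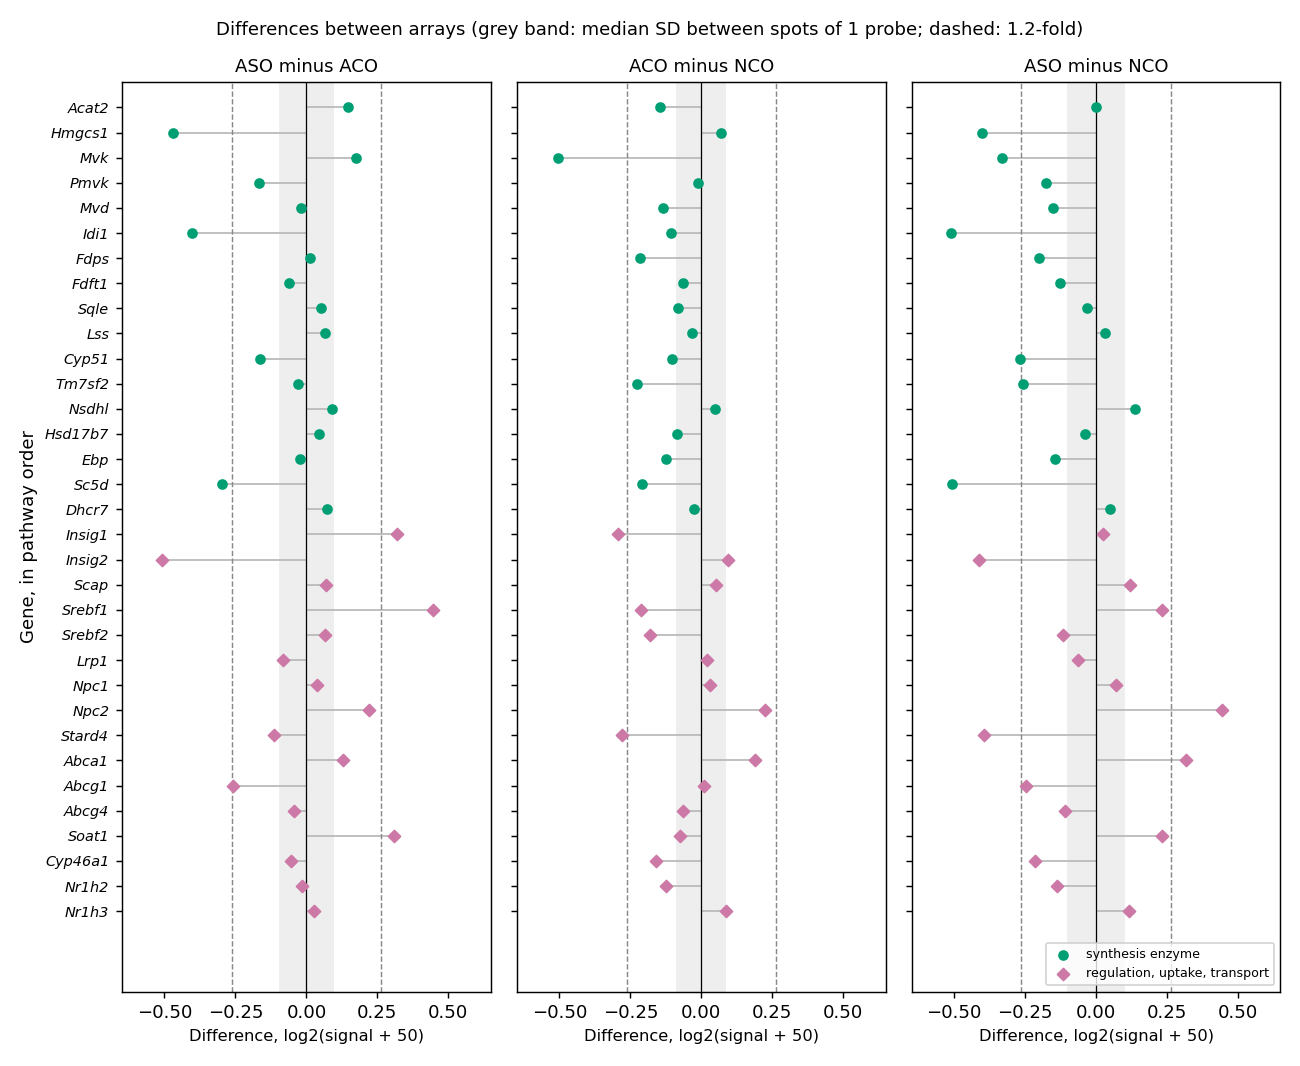
Log2 differences of the 33 genes, from the first enzyme of the pathway at the top to the liver X receptors at the bottom, for ASO minus ACO, ACO minus NCO and ASO minus NCO. The grey band is the median SD between spots of 1 probe and the dashed lines mark 1.2-fold. Points of the enzymes lie mostly left of 0 for ACO minus NCO, within a narrow range except Mvk, and spread further left for ASO minus NCO.

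By the order of the 3 arrays, NCO carried the highest signal for 12 of the 17 enzymes (70.6%), where it did so for 29.7% of 13196 genes measured on all arrays. For Nsdhl NCO was the lowest of the 3, the 1 such enzyme (5.88% of 17, against 28.4% of all genes). ASO was lowest for 9 enzymes (52.9%), where it was lowest for 43.3% of all genes. Among the 16 other genes NCO was highest for 5 (31.2%) and lowest for 5.

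The widest enzyme difference of each comparison belonged to a mevalonate gene, but for ASO minus NCO Sc5d, at -0.507, was level with Idi1, at -0.510. Hmgcs1, the cytosolic synthase that makes HMG-CoA, had a signal of 7298 on ASO, 10121 on ACO and 9648 on NCO. ASO stood apart while the other arrays were 0.069 apart, and the differences of -0.47 for ASO minus ACO and -0.40 for ASO minus NCO stayed past 1.2-fold under the 7 alternative settings that could change the value of a gene with 1 probe. Idi1, the isopentenyl diphosphate isomerase that makes the building block of all isoprenoids reactive, had a signal of 1755 on ASO, 2335 on ACO and 2520.5 on NCO. ASO was the low array, at -0.40 against ACO and -0.51 against NCO, both again past 1.2-fold under those 7 settings, and ACO minus NCO was -0.11. Mvk, mevalonate kinase, followed another order, with 2610.5 on ASO, 2305 on ACO and 3295 on NCO. ACO was lowest here, at -0.51 against NCO, and ASO minus ACO was 0.18. This Mvk probe is the 1 member probe in the authors' deposited table, which gives 2343.7 on ASO, 2213.9 on ACO and 3083.8 on NCO. As log2 ratios without an added constant, those values give -0.478 for ACO over NCO. For ASO over ACO they give 0.082, smaller than the 0.18 found here and below the median spot SD.

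The other mevalonate genes differed less. Fdps, which joins isoprene units to farnesyl diphosphate, had 2840.4 on ASO, 2814 on ACO and 3271 on NCO, a difference of -0.21 for ACO minus NCO and -0.20 for ASO minus NCO. After correction by the surrounding spots, its ASO minus NCO difference was -0.047. Mvd, the decarboxylase that makes isopentenyl diphosphate, had 413 on ASO, 419 on ACO and 465 on NCO, so that both peptide-injected pools lay below the NCO pool. Acat2, the thiolase that opens the pathway, had 518 on ASO, 464 on ACO and 518 on NCO, with ACO alone lower, at -0.14. Pmvk, phosphomevalonate kinase, had 6755 on ASO, 7585 on ACO and 7639 on NCO, and its probes disagreed on ASO, as given below.

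The squalene steps were close to level on the 3 arrays. Fdft1, squalene synthase, had 1128 on ASO, 1179 on ACO and 1236 on NCO. Sqle, the epoxidase that is a rate-limiting step of the later pathway, had 3167 on ASO, 3059 on ACO and 3237 on NCO. Lss, lanosterol synthase, was dim, with 111 on ASO, 104 on ACO and 108 on NCO. The differences of these genes ran from -0.13 to 0.065, and all but the -0.13 of Fdft1 for ASO minus NCO were below the median spot SD of their comparison.

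After lanosterol, Sc5d stood out. It encodes the desaturase that acts just before the last reduction to cholesterol, and its signal was 698 on ASO, 869 on ACO and 1012 on NCO. The 3 arrays were stepped, with -0.21 for ACO minus NCO, -0.30 for ASO minus ACO and -0.51 for ASO minus NCO. ASO minus ACO was -0.23, short of 1.2-fold, after correction by the surrounding spots. Cyp51, the lanosterol demethylase, had 174 on ASO, 202 on ACO and 220.3 on NCO, the same order on a dim probe, with -0.27 for ASO minus NCO. That value was -0.23 with spot means.

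Tm7sf2, a sterol reductase that follows Cyp51, had 1534 on ASO, 1568 on ACO and 1843 on NCO, so that ASO minus ACO was -0.031 while ACO minus NCO was -0.23. Ebp, the sterol isomerase, had 2120.1 on ASO, 2151 on ACO and 2348 on NCO, also with NCO highest, at -0.12 for ACO minus NCO. Hsd17b7 and Nsdhl act together in removing methyl groups from the sterol ring. Hsd17b7 had 189 on ASO, 182 on ACO and 196 on NCO, and its probes disagreed, as given below. Nsdhl had 268 on ASO, 248 on ACO and 238 on NCO, with NCO lowest. Dhcr7, which reduces the last precursor to cholesterol, had 692 on ASO, 656 on ACO and 668 on NCO, with no difference above 0.072.

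The regulators of the pathway differed in direction. Insig1, itself a target of the SREBP factors, had 164 on ASO, 122 on ACO and 161 on NCO. ACO was the low array, at -0.29 for ACO minus NCO and 0.32 for ASO minus ACO, while ASO minus NCO was 0.025. After correction by the surrounding spots the ASO minus ACO difference was 0.20 and the ACO minus NCO difference was -0.260, both short of 1.2-fold. Insig2, its relative with the same task, went another way, with 1070.0 on ASO, 1544 on ACO and 1442 on NCO. Its difference of -0.51 for ASO minus ACO was the lowest among the 33 genes in that comparison.

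Srebf1, the factor that mainly drives fatty acid synthesis, had 215 on ASO, 145 on ACO and 176 on NCO. ACO was lowest and ASO highest, with 0.45 for ASO minus ACO, the highest of the 33 genes in that comparison and past 1.2-fold under the 7 settings that could change it. Srebf2, the factor that mainly drives cholesterol synthesis, had 216 on ASO, 204 on ACO and 238 on NCO, with -0.18 for ACO minus NCO. Scap had 7460.0 on ASO, 7116 on ACO and 6859 on NCO, a small stepwise order with 0.12 for ASO minus NCO.

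Genes of uptake and movement inside the cell differed in direction. Npc2, the soluble protein that hands cholesterol from the lysosome's interior to Npc1, had 1701 on ASO, 1455 on ACO and 1237 on NCO. It was higher at each step, by 0.23 for ACO minus NCO, 0.22 for ASO minus ACO and 0.44 for ASO minus NCO, and the last stayed past 1.2-fold under the 7 settings that could change it. Npc1, its membrane partner, had 173 on ASO, 168 on ACO and 163 on NCO, with every difference below the median spot SD. Stard4, a cytosolic sterol carrier and SREBP target, had 347 on ASO, 379 on ACO and 471 on NCO. Its differences of -0.28 for ACO minus NCO and -0.39 for ASO minus NCO came to -0.17 for ACO minus NCO and -0.14 for ASO minus NCO after correction by the surrounding spots. The spots around Stard4 lay at -0.25 for ASO minus NCO, the lowest surroundings of the 33 genes. Lrp1, a large receptor that takes up lipoproteins, had 4079.7 on ASO, 4321 on ACO and 4263 on NCO with every difference below the median spot SD.

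Among the exporters, Abca1, which loads cholesterol onto apolipoproteins and is a classic target of the liver X receptors, had 981 on ASO, 893 on ACO and 778 on NCO. It was higher at each step, and its 0.32 for ASO minus NCO stayed past 1.2-fold under the 7 settings that could change it. Abcg1, which passes cholesterol to lipoprotein particles and is another liver X receptor target, had 1526 on ASO, 1833 on ACO and 1819 on NCO. ASO was the low array, at -0.257 against ACO and -0.25 against NCO. Both lay short of 1.2-fold, and after correction by the surrounding spots they were -0.15 against ACO and -0.021 against NCO. Abcg4, a close relative found mainly in neural tissue, had 8167 on ASO, 8424 on ACO and 8816 on NCO. Its second probe ran in the opposite order, as given below.

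The liver X receptors themselves had no difference past 1.2-fold. Nr1h2, the widely expressed form, had 4437 on ASO, 4483 on ACO and 4891 on NCO. Nr1h3, the form of liver and macrophages, had 395 on ASO, 387 on ACO and 361 on NCO. The 2 genes lay on opposite sides for ASO minus NCO, at -0.14 for Nr1h2 and 0.12 for Nr1h3.

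Of the genes of storage and removal, Soat1, which esterifies cholesterol for storage in droplets, was the dimmest member, with 109 on ASO, 78.3 on ACO and 85.2 on NCO. It was 0.31 higher on ASO than on ACO, but 0.25 with quantile normalization and 0.23 after correction by the surrounding spots. Cyp46a1, the neuronal enzyme that hydroxylates cholesterol so that it can leave the brain, had 326 on ASO, 340.2 on ACO and 386 on NCO. NCO was the high array, at -0.16 for ACO minus NCO and -0.21 for ASO minus NCO.

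A second measured probe was present for 8 of the 33 genes and often disagreed with the brightest one. The 2 probes had the same sign in 5 of 8 genes for ACO minus NCO, in 4 of 8 for ASO minus ACO and in 5 of 8 for ASO minus NCO. Their median gap was 0.12 for ACO minus NCO, 0.19 for ASO minus ACO and 0.26 for ASO minus NCO, each above the median spot SD. The lower Mvk on ACO was seen on both probes, at -0.51 and -0.24, and so was its difference for ASO minus ACO, at 0.18 and 0.17. For ASO minus NCO the Mvk probes stood at -0.33 and -0.065. The 2 Insig2 probes are assigned to different transcript accessions. For ASO minus ACO the brighter stood at -0.51 and the dimmer at -0.056, and for ASO minus NCO at -0.41 and -0.032. The Pmvk probes were on opposite sides on ASO, at -0.17 and 0.15 against ACO. Tm7sf2 stood at -0.23 and -0.079 on its probes for ACO minus NCO, and at -0.26 and -0.010 for ASO minus NCO. The Hsd17b7 probes were on opposite sides for ACO minus NCO, at -0.085 and 0.13, and for ASO minus ACO, at 0.046 and -0.25. The dimmer Srebf2 probe stood at 0.39 for ASO minus NCO against -0.12 for the brighter one, and its own signal was 77.3 on ASO, 51.7 on ACO and 47 on NCO. The Abcg4 probes were on opposite sides in every comparison, at -0.11 and 0.086 for ASO minus NCO. The second Abcg4 probe had 4599 on ASO, 4369.5 on ACO and 4329 on NCO. Hmgcs1, Idi1, Sc5d, Insig1, Srebf1, Npc2 and Abca1 rest on 1 probe each.

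**Figure D3:**
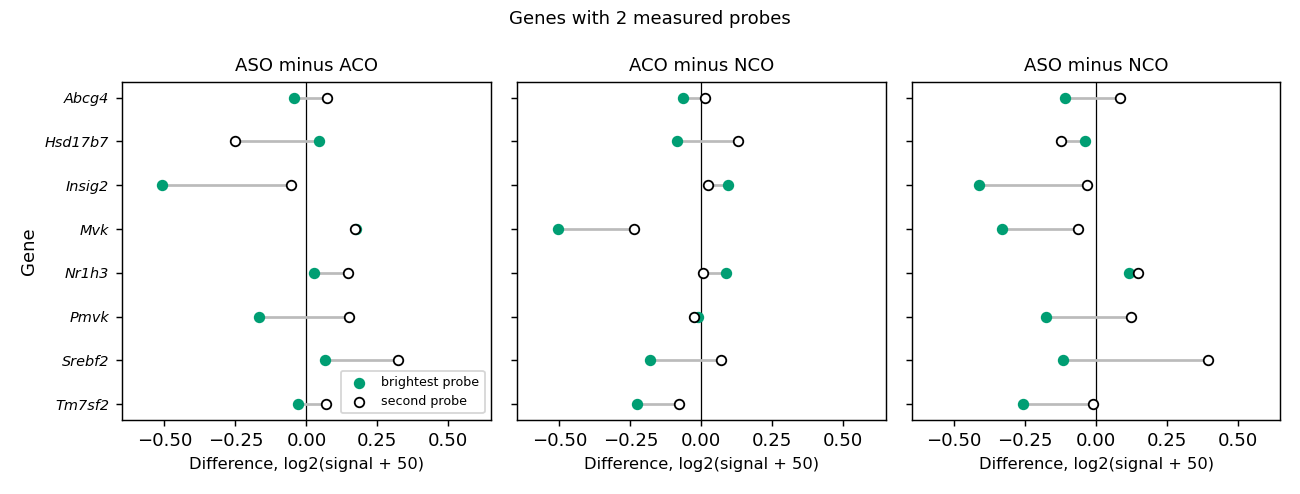
Log2 differences of the brightest (filled) and the second (open) probe of the 8 genes with 2 measured probes, for each comparison. The bars joining them show the gap, which is widest for Srebf2 in ASO minus NCO and nearly 0 for Mvk in ASO minus ACO.

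Another 66 genes of sterol, lipoprotein and fatty acid handling were listed as the wider pathway, and 59 of them were measured. For ACO minus NCO 21 of 59 (35.6%) were lower, with a median of 0.031. In that comparison 48.2% of all genes and 15 of the 17 synthesis enzymes were lower. For ASO minus NCO 31 of 59 (52.5%) were lower with a median of -0.004, near the 52.9% of all genes and their median of -0.014. Msmo1, a sterol methyl oxidase of the steps after lanosterol, was the lowest of the 59 for ASO minus ACO and for ASO minus NCO. It had 8268 on ASO, 11196 on ACO and 11483 on NCO. Its difference of -0.43 for ASO minus ACO, with ACO minus NCO at -0.036, lay near those of Hmgcs1 and Idi1. Fads1, a fatty acid desaturase and SREBP target, came next at -0.32 for ASO minus ACO and -0.31 for ASO minus NCO.

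At the other end, Apoc1, a small apolipoprotein, had 1312 on ASO, 829 on ACO and 687 on NCO, at 0.89 for ASO minus NCO. Gpam, which starts triglyceride synthesis, was at 0.38 for ASO minus ACO on a dim probe and at 0.041 on a second dim probe. Rnf145, a sterol-sensing ubiquitin ligase, was at 0.39 for ASO minus NCO. For ACO minus NCO the highest were Lipa, the lysosomal acid lipase that frees cholesterol from its esters, at 0.37, and Erlin1, a cholesterol-binding protein of the endoplasmic reticulum, at 0.31. Among the lowest was Por, the reductase that supplies electrons to Cyp51 and Sqle, at -0.22. Of the 17 fatty acid genes that SREBP factors drive, 6 were lower and 11 higher (64.7%) for ACO minus NCO, with a median of 0.017. In that comparison 51.8% of all genes were higher. For ASO minus ACO 10 of the 17 (58.8%) were lower and 7 higher, with a median of -0.010, where 52.9% of all genes were lower.

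Markers of cell types, each read by its brightest probe, were compared between the same arrays. Of all measured genes 48.2% were lower and 51.8% higher for ACO minus NCO. For ASO minus ACO and for ASO minus NCO 52.9% were lower and 47.1% higher. In a bulk sample, fewer cells of a type and less RNA per cell cannot be told apart. All 12 oligodendrocyte markers were lower on ACO than on NCO, with a median of -0.16, from Cnp at -0.31 to Mbp at -0.027. Their summed signal was 94945 on ACO and 106494 on NCO. Further probes stood at -0.264 and -0.258 for Mbp and at -0.15 and -0.116 for Mobp, but at 0.023 for Ermn. For ASO minus NCO 9 of 12 were lower with a median of -0.16, but Mag was at 0.34, and the summed signal was 105832 on ASO and 106494 on NCO. All 10 astrocyte markers were higher on ASO than on ACO, with a median of 0.18 and a summed signal of 86080 on ASO and 77724 on ACO. Second probes of Aqp4 and Fgfr3 were lower, at -0.034 and -0.20, while the further probes of Slc1a2 and Gfap were higher too. Aldoc and S100b each kept their sign under 9 of 10 alternative settings. Of the microglia markers 9 of 10 were higher on ASO than on ACO, with a median of 0.33 and a summed signal of 36401 on ASO and 29104 on ACO, and P2ry12 was at -0.40. Choroid plexus markers were higher on ACO than on NCO in 9 of 10 cases, with a median of 0.50. Ttr, the brightest of them, was at -0.46, and the summed signal was 22004 on ACO and 25389 on NCO. For ASO minus NCO 8 of 10 astrocyte markers were higher with a median of 0.23, 8 of 10 microglia markers with a median of 0.25 although Itgam was at -0.82, and 9 of 10 choroid plexus markers with a median of 0.24. For ASO minus ACO 9 of 10 choroid plexus markers were lower, with a median of -0.24. Of the 11 hippocampal neuron markers 6 (54.5%) were lower for ASO minus ACO, near the share of all genes. The median was -0.10, from Calb1 at -0.49, with -0.082 on its second probe, to Wfs1 at 0.36. For ASO minus NCO 7 of these markers (63.6%) were lower, with a median of -0.069, from C1ql2 at -0.41 to Snap25 at 0.58. Their summed signal was 61770.0 on ASO, 59811 on ACO and 58286 on NCO. Of 7 measured endothelial markers 6 were lower on ACO than on NCO, with a median of -0.097. Every marker of the oligodendrocyte, astrocyte, microglia and choroid plexus lists was measured on the 3 arrays. The part of these cell type shifts in the differences of the cholesterol genes was not tested.

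**Figure D4:**
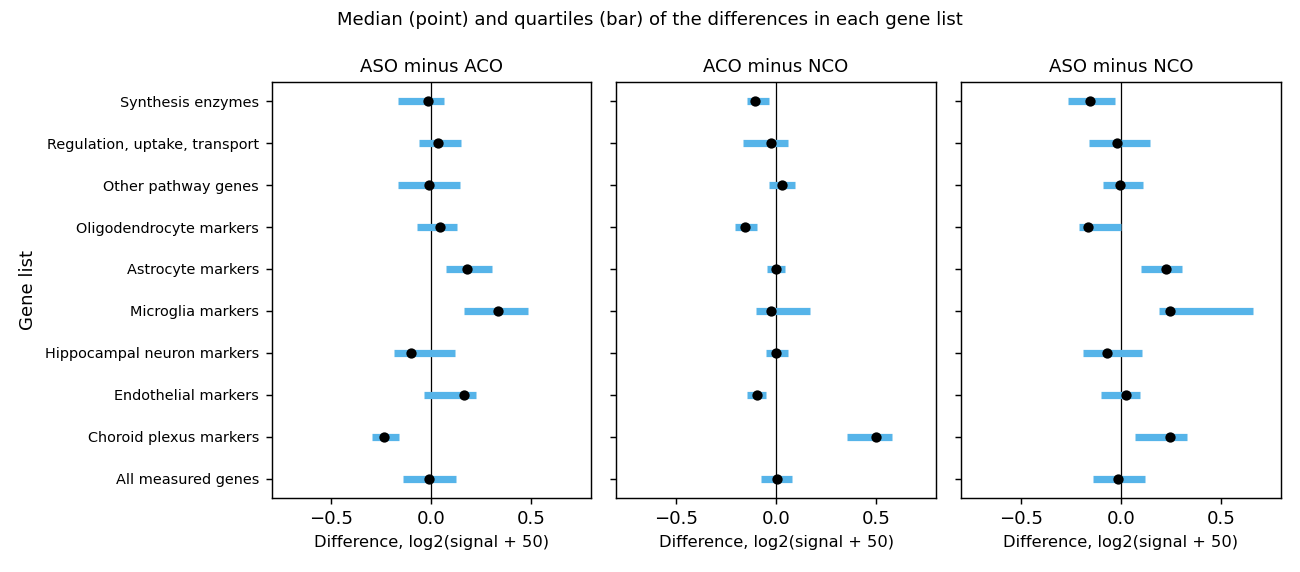
Median (point) and quartiles (bar) of the log2 differences in each gene list and over all measured genes, for the 3 comparisons. Synthesis enzymes lie at -0.10 and oligodendrocyte markers at -0.16 for ACO minus NCO, left of the 0.005 of all genes, while for ASO minus ACO the enzymes lie at -0.018 and the microglia markers at 0.33.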

How the data were processed

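Each array held Cy3-labelled RNA of 1 pool, made from 200 ng. The intensity values are foreground and background medians read at 532 nm, which the authors quantified in GenePix Pro 6.1.0.4, and per the file headers they were not normalized. The signal to noise score of a spot and its percent of saturated pixels were deposited by the authors as that program wrote them. Agilent Feature Extraction appears in the submitters' processing notes, but the files hold GenePix columns, so the spot medians were used.

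Background was corrected over all spots with normexp in limma 3.58.1 (R 4.3.3, saddle fit, offset 0). Gene spots alone were kept, their 75th percentile was set equal on the 3 arrays by factors of 0.991 for ASO, 0.949 for ACO and 1.06 for NCO, and 50 was added before log2. A gene entered a comparison through its brightest probe with a score of at least 2.6 on both arrays, no bad-spot mark and under 50% of saturated pixels on at least 1 of the 2. Steps after that ran in Python 3.11.15 and were tested on simulated data. Names of other genes came from a RefSeq table of GRCm38.p6, by accession for 26537 probes, by symbol for 2596 and by synonym for 490.

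The authors' deposited table of intensity values for 475 probes is a straight line of the foreground medians, with slopes of 0.893 on ASO, 0.917 on ACO and 1 on NCO and column medians of 113.3 on ASO, 97.4 on ACO and 116.8 on NCO. Its scale is linear and its direction is that of signal, while the reason for the slopes is not given in the sources used here.

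With 1 array for each group, no test was run and the 10 alternative settings show dependence on processing only. The members and lists were chosen with earlier results of these data known. All measured members are named, and of the wider pathway the 2 highest and 2 lowest genes of each comparison, except 1 that is not reported here.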

Additional observations from a re-analysis of the deposited data

How the results depend on the processing

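Each value was recomputed under 10 alternative settings, one at a time: spot means, normexp with an offset of 50, subtracted background, quantile normalization, scaling to the median, an added constant of 16, a score of at least 5, no filter on dim probes, the mean over probes and correction by the surrounding spots. The median of the synthesis enzymes ranged from -0.11 to -0.10 for ACO minus NCO, from -0.033 to -0.004 for ASO minus ACO and from -0.17 to -0.13 for ASO minus NCO, and 14 to 16 of 17 enzymes were lower for ACO minus NCO, 9 to 11 for ASO minus ACO and 13 to 15 for ASO minus NCO. The median of the 16 other genes stayed within -0.063 and 0.053 in all 3 comparisons. Members lower by 1.2-fold or more for ACO minus NCO were 1 after correction by the surrounding spots, against 3 in the reported setting, where 2.31% of all genes were after that correction and 2.72% in the reported setting, and Insig1 then stood at -0.260 and Stard4 at -0.17. Members lower by 1.2-fold or more for ASO minus NCO were 5 with the mean over probes and 8 with spot means, against 7 in the reported setting. Of all genes 6.75% were with the mean over probes, 7.73% with spot means and 8.31% in the reported setting. Members higher by 1.2-fold or more for ASO minus NCO were 4 with an added constant of 16, against 2, where 12.3% of all genes were with that constant and 10.3% in the reported setting. For ACO minus NCO 20 of 23 lower members kept their sign under every alternative, for ASO minus ACO 10 of 16 and for ASO minus NCO 19 of 21. Of the higher members 7 of 10 did so for ACO minus NCO, 12 of 17 for ASO minus ACO and 7 of 12 for ASO minus NCO. The score limit, the filter and the mean over probes cannot change a gene with 1 bright probe. No paired analysis was possible because each group had 1 array, and for the same reason no array could be left out. Every member difference rests on single spots, and the spot SD was larger for signals under 300.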
